A study of Mus musculus with 6 samples.

Results

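The Sprouty and Spred genes encode inhibitors of growth factor signalling to ERK, and their mRNA was measured here in fresh and in preserved pituitary cells. The 6 genes, *Spry1*, *Spry2*, *Spry4*, *Spred1*, *Spred2* and *Spred3*, were found by matching their symbols to the identifiers of a count table of 47069 genes, and all 6 were in it. LβT2 is a mouse line of immortalized gonadotropes, the pituitary cells that make luteinizing hormone and follicle-stimulating hormone, and as 1 line it stands for no other pituitary cell. Every culture was exposed to GnRH at 2 nM over 40 min, so no untreated level is available here. Cells were then lysed directly (fresh, 3 libraries) or kept at 4 °C in the preservative RNA-Best over 4 days or more before lysis (RNA-Best, 3 libraries). The comparison asks whether the preservative leaves the transcript levels as they are in fresh cells.

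Sprouty and Spred proteins share a cysteine-rich domain at their C-terminus, by which they attach to membranes, and both families hold back the path from receptor tyrosine kinases through Ras and Raf to the kinase ERK. Sprouty proteins are phosphorylated at the N-terminus, where they bind the adaptor Grb2 and the ubiquitin ligase Cbl, and several are themselves made in response to ERK, which closes a feedback loop. Spred proteins carry an EVH1 domain and bring neurofibromin, the protein that switches Ras off, to the plasma membrane. In gonadotropes the GnRH receptor, a G protein-coupled receptor, activates ERK mainly through protein kinase C, and ERK then drives immediate-early genes.

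The libraries held 14477304 to 47438746 counts in fresh and 4909418 to 11999363 counts in RNA-Best cells, so every fresh library was the deeper. Levels are given as CPM, the count scaled by the total of its library. Counting error alone allows up to 3 counts where 0 were found, a limit of 0.0632 to 0.611 CPM depending on the depth of the library. A filter on low counts left 14736 genes for testing, of which 50.8% differed between the groups (edgeR's quasi-likelihood test, adjusted p under 0.05), 26.0% being higher and 24.8% lower in RNA-Best. Of 8 gonadotrope markers, 7 were detected, with summed levels of 3607 to 3644 CPM in fresh and 3075 to 3153 CPM in RNA-Best libraries, and *Fshb* was at 0 in every library. Of 7 markers of other pituitary cells, 5 were detected, with *Prl* and *Sox2* at 0. Their summed levels were 1.11 to 1.31 CPM in fresh and 1.22 to 2.51 CPM in RNA-Best libraries. Among them, *Tshb* was higher in every RNA-Best library (1.22 to 2.28 against 0.765 to 1.04 CPM) and *Ghrhr* lower (0 to 0.114 against 0.138 to 0.296 CPM), both at few counts. The 3 fibroblast and 3 blood markers summed to at most 0.173 CPM, with *Dcn* and *Ptprc* at 0. The 3 endothelial markers were all detected, at 196.9 to 199 CPM in fresh and 202 to 213 CPM in RNA-Best libraries, most of it from *Cdh5*. Of these, *Cdh5* was higher in every RNA-Best library (157 to 169 against 147 to 149.8 CPM), *Pecam1* lower (37.7 to 40.7 against 41.8 to 43.1 CPM) and *Plvap* overlapping, and the part of these differences in the results below was not tested. Separate cultures behind the replicates are not stated in the sources used here, so the p-values measure the spread between these libraries, which may be technical.

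The 3 Spred genes made up nearly all of the mRNA of the 6 genes, and their summed level was higher in RNA-Best than in fresh libraries. The summed level of the 3 Sprouty genes was low in both groups. The 3 Spred genes together had 118, 116 and 114 CPM in the fresh libraries and 132, 147 and 137 CPM in the RNA-Best libraries. These ranges did not overlap, and the means were 115.9 ± 1.93 and 138.7 ± 7.45 CPM (SD, n = 3 each), a ratio of 1.197. The 3 Sprouty genes together had 2.22, 2.17 and 1.93 CPM in the fresh and 1.94, 2.44 and 1.5 CPM in the RNA-Best libraries, and these ranges overlapped. In bulk libraries, fewer cells of a kind and less RNA per cell cannot be told apart. Per kb of exonic sequence, the Spred genes held 97.5% to 98.6% of the summed level of the 6 genes in each library.

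The 6 genes were ordered by their level per kb of exonic sequence, which allows genes of unlike length to be compared. *Spred1* came first at 9.34 to 11.3 CPM per kb over the 6 libraries, followed by *Spred2* at 6.24 to 7.45 and *Spred3* at 3.22 to 5.80 CPM per kb. *Spry4* lay at 0.298 to 0.471 CPM per kb, *Spry1* at 0.0287 to 0.102 and *Spry2* at 0 to 0.0118 CPM per kb. No pair of neighbours in this order overlapped in its range over the libraries. Among 14677 tested genes with a known exonic length, 61.1% had a lower mean level per kb than *Spred1*, 50.7% a lower one than *Spred2*, 37.3% a lower one than *Spred3* and 4.86% a lower one than *Spry4*. The place of *Spred3* rests on the length used, since the exons of its 4 annotated transcripts together span 6218 bp and its longest transcript only 4056 bp. Per kb of the longest transcript, *Spred3* reached 4.94 to 8.89 CPM and *Spred2* 6.47 to 7.74 CPM, so that their ranges overlapped.

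**Figure D1:**
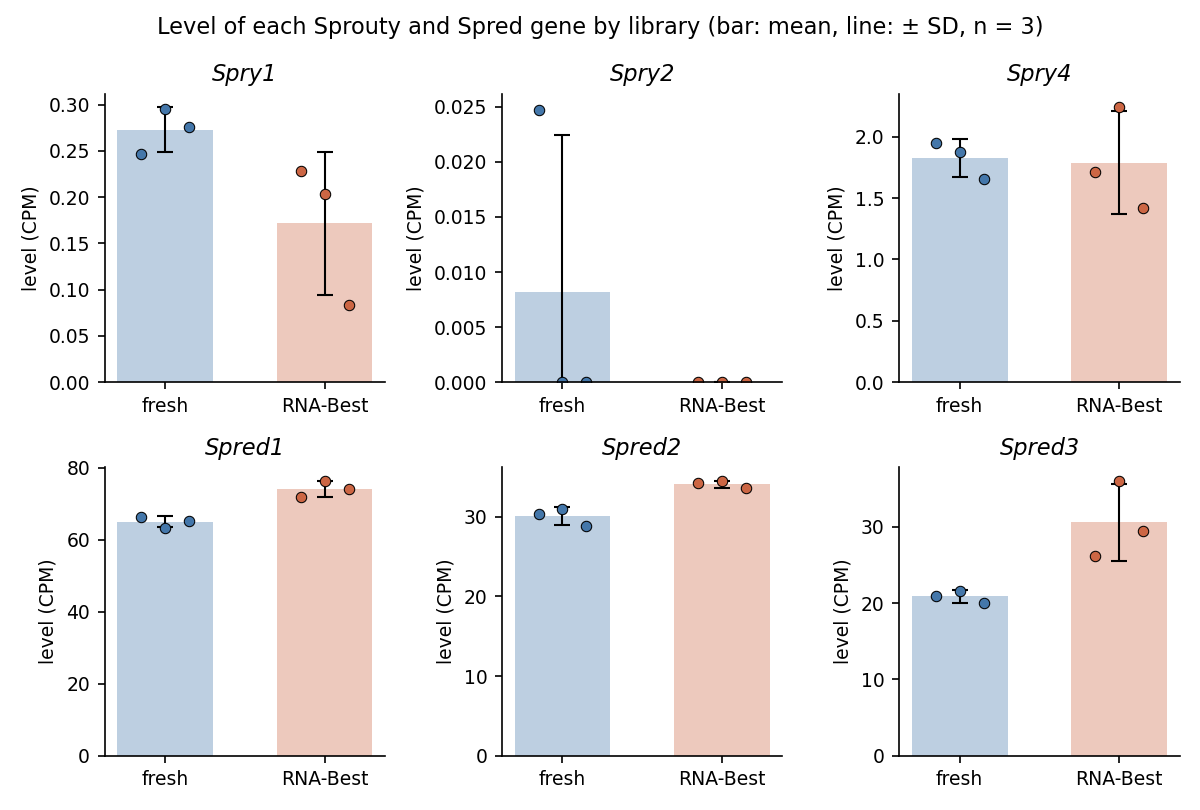
Level of each gene in CPM (y axis, with its own scale for each gene) in the 3 fresh and 3 RNA-Best libraries, with points for libraries, bars for means and lines for ± SD (n = 3). The RNA-Best points of *Spred1*, *Spred2* and *Spred3* all lie above the fresh points, those of *Spry1* below, those of *Spry4* on both sides, and *Spry2* has a single count.

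Of the 6 genes, 4 passed the filter on low counts, and 3 of these 4 were higher in RNA-Best (adjusted p under 0.05, edgeR), as were 26.0% of all tested genes. The level ranges of fresh and RNA-Best libraries did not overlap in 3 of the 4, the Spred genes, and in 57.5% of all tested genes. The median log2 fold change of the 4 tested genes was 0.16, beside -0.01 over all tested genes.

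*Spred1* encodes the family member whose loss of function causes Legius syndrome, a human condition related to neurofibromatosis, and it was the most highly expressed of the 6 genes. It lies on chromosome 2 of GRCm38 from 117121374 to 117182279 on the plus strand, with 7 exonic blocks over 6784 bp. Its level was 66.4, 63.4 and 65.1 CPM in the fresh and 71.8, 76.4 and 74.1 CPM in the RNA-Best libraries. Every RNA-Best library was thus above every fresh library, by little. The means of 64.96 ± 1.53 and 74.1 ± 2.29 CPM (SD, n = 3 each) differed by a log2 fold change of 0.17 (standard error 0.0427, 95% interval 0.08 to 0.26, adjusted p = 0.000997, edgeR), or 1.13-fold. This call was lost with an offset for exonic length (0.05, adjusted p = 0.417, edgeR) and with an offset for GC content (0.04, adjusted p = 0.409, edgeR). It was also lost when each library was thinned to 4909268 counts (0.14, adjusted p = 0.0943, edgeR).

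*Spred2* encodes a Spred protein with the same EVH1, Kit-binding and cysteine-rich domains, and it showed the smallest difference among the genes that passed. The gene spans 99652 bp on chromosome 11 from 19924375 to 20024026 on the plus strand, with 8 exonic blocks over 4619 bp. It had 30.3, 31.0 and 28.8 CPM in the fresh and 34.2, 34.4 and 33.5 CPM in the RNA-Best libraries, so the groups did not overlap. The means were 30.1 ± 1.13 and 34.1 ± 0.457 CPM (SD, n = 3 each), with a log2 fold change of 0.15 (standard error 0.0572, 95% interval 0.03 to 0.26, adjusted p = 0.0314, edgeR), or 1.11-fold. The deposited count of *Spred2* was not whole in 3 of the 6 libraries, and as the setting that divided reads is not given in the sources used here, its level is uncertain to that extent. Leaving out 1 library removed the call in 5 of 6 cases, with an adjusted p of 0.0524 without fresh replicate 1, 0.0579 without fresh replicate 3, and 0.0935, 0.0662 and 0.0722 without RNA-Best replicate 1, 2 or 3 (edgeR), while the log2 fold change in these 5 fits was 0.13 to 0.16. Without the filter on low counts the log2 fold change was 0.10 (adjusted p = 0.263, edgeR). With DESeq2's Wald test it was 0.16 (adjusted p = 0.0987), and after thinning it was 0.22 (adjusted p = 0.0542, edgeR).

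*Spred3* encodes the Spred protein that lacks a working Kit-binding domain, and its difference was the largest of the 4 tested genes. It lies on chromosome 7 from 29158829 to 29170411 on the minus strand, with 7 exonic blocks. The level was 20.99, 21.6 and 20.03 CPM in the fresh and 26.2, 36.1 and 29.5 CPM in the RNA-Best libraries. All RNA-Best values were above all fresh values, and they were also spread more widely, with RNA-Best replicate 2, the shallowest library, at the top. The means of 20.9 ± 0.794 and 30.6 ± 5.01 CPM (SD, n = 3 each) differed by a log2 fold change of 0.48 (standard error 0.0718, 95% interval 0.33 to 0.63, adjusted p = 7.69e-07, edgeR), or 1.39-fold. *Spred3* passed in all 18 alternatives, at a log2 fold change of 0.38 to 0.57 and an adjusted p of 1.05e-09 to 0.00575 over edgeR, limma-voom and DESeq2. Without RNA-Best replicate 2 the log2 fold change was 0.40. *Spred3* shares 202 bp of exonic sequence with *Ggn*, a gene on the opposite strand that had 1.59 to 3.46 CPM, again highest in RNA-Best replicate 2, and reads from that stretch cannot be assigned to either gene here.

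The balance among the 3 Spred genes differed between the groups. Of the summed Spred level per kb, *Spred3* held 17.1%, 17.8% and 16.9% in the fresh and 19.0%, 23.7% and 20.7% in the RNA-Best libraries. Its share was thus higher in every RNA-Best library, with means of 17.3% ± 0.460 and 21.1% ± 2.36 (SD, n = 3 each). *Spred1* held 49.6%, 47.8% and 50.4% in the fresh and 47.7%, 45.9% and 47.6% in the RNA-Best libraries. *Spred2* held 33.3%, 34.4% and 32.7% in the fresh and 33.3%, 30.4% and 31.7% in the RNA-Best libraries, with overlapping ranges. In CPM, *Spred3* had 0.308 to 0.341 of the level of *Spred1* in the fresh and 0.365 to 0.472 in the RNA-Best libraries. The same ratio of *Spred2* to *Spred1* was 0.443 to 0.489 in the fresh and 0.451 to 0.476 in the RNA-Best libraries, with no such shift. These shares were not tested.

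**Figure D2:**
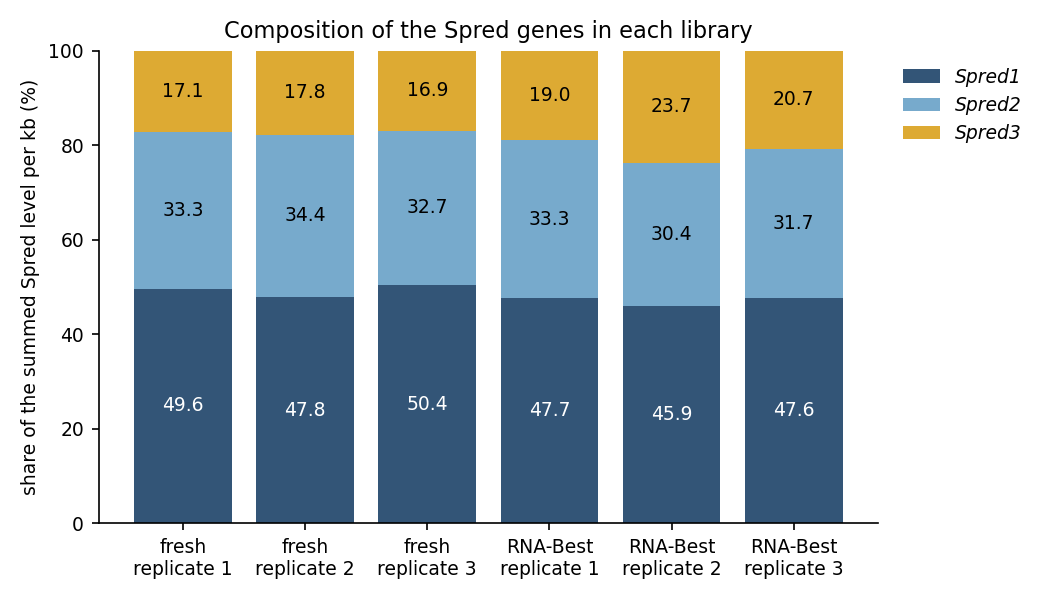
Share of each Spred gene in the summed Spred level per kb of exonic sequence (y axis, %), for each of the 6 libraries (x axis). The *Spred3* segment is 16.9% to 17.8% in the fresh and 19.0% to 23.7% in the RNA-Best libraries.

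For a view of the sequence ahead of these genes, the 250 bases upstream of the RefSeq start (GRCm38.p6) were read for the 5 of 6 genes with an entry, *Spry4* having none. They are shown for the 3 Spred genes, which are expressed and were higher in RNA-Best, and for *Spry2*, which is nearly silent here. Capitals mark GC boxes (GGGCGG on either strand). The *Spred1* stretch is chr2:117120821-117121070 on the plus strand, *Spred2* chr11:19924192-19924374 on the plus strand, *Spred3* chr7:29168648-29168897 on the minus strand and *Spry2* chr14:105896820-105897069 on the minus strand. Only 183 bases are shown for *Spred2*, because the other 67 lie past the start of the gene in the GENCODE annotation.
Spred1: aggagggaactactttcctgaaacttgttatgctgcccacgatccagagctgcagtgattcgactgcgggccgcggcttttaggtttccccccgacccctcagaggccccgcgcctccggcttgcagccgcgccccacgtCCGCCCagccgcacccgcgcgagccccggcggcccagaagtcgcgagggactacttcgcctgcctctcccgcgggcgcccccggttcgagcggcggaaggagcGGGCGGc
Spred2: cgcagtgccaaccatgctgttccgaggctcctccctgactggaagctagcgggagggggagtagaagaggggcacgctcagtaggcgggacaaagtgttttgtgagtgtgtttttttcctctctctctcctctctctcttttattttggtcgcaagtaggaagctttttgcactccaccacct
Spred3: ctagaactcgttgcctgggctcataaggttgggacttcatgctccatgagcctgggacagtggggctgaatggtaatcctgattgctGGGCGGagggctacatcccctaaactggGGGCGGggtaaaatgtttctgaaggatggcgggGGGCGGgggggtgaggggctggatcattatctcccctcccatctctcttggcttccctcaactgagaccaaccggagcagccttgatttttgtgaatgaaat
Spry2: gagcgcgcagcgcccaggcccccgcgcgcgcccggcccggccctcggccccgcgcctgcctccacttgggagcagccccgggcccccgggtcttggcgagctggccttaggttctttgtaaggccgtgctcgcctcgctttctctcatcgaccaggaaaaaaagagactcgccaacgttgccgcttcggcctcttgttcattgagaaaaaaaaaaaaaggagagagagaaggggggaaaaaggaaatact

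The *Spred1* stretch held 31 CpG dinucleotides and a GC content of 70.8%, and 94.8% of 32851 mouse promoters of the same length held fewer CpG. The whole *Spred2* stretch held 12 CpG and the *Spred3* stretch 6 CpG, where the median promoter held 6. The stretches of *Spry1* and of *Spry2* held 23 CpG each at a GC content of 62.4%, so the low level of both genes went with CpG-rich sequence ahead of them. GC boxes numbered 2 for *Spred1*, 1 for *Spred2*, 3 for *Spred3*, 1 for *Spry1* and 0 for *Spry2*. That of *Spred2* lies in the bases not shown, and 32.7% of all promoters held at least 1 GC box. A CCAAT box (CCAAT, in 33.8% of promoters) was found only for *Spry1*. The TATA box (TATAAA, in 12.4%), the AP-1 motif (TGANTCA, in 6.75%), the cAMP response element (TGACGTCA, in 1.55%), an Ets motif (CCGGAAGT, in 2.88%) and the CArG box (in 1.47%) had no match in any of the 5 stretches. Both strands were searched and no matches overlapped. A match is only a run of letters, and its absence speaks for this window alone. The RefSeq start of *Spred3* lies within the gene as GENCODE draws it, so other start sites are not covered. The *Spred3* stretch was not checked for annotated exons.

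*Spry4*, an inducible Sprouty that acts on Ras and Raf, was the only Sprouty gene with enough counts for a test, and it did not pass. It lies on chromosome 18 from 38586247 to 38601415 on the minus strand, with 2 exonic blocks over 4755 bp. The libraries held 79, 89 and 24 counts of it in fresh and 15, 11 and 17 counts in RNA-Best cells. As CPM these were 1.95, 1.88 and 1.66 in the fresh and 1.71, 2.24 and 1.42 in the RNA-Best libraries, with the highest and the lowest value both in RNA-Best. The means were 1.83 ± 0.152 and 1.79 ± 0.418 CPM (SD, n = 3 each). The log2 fold change of -0.18 (standard error 0.219) did not pass (adjusted p = 0.562, edgeR), and its 95% interval of -0.62 to 0.27 spans both directions. Its sign turned when every library was thinned to the same depth (0.14) and without RNA-Best replicate 3 (0.0084), at an adjusted p of 0.801 and 0.987 (edgeR). A difference of the size seen in *Spred1* or *Spred2* lies within this interval and was not detectable at this depth.

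*Spry1*, which restrains growth factor signalling in the developing kidney, was detected in every library but by few counts. It lies on chromosome 3 from 37639947 to 37644598 on the plus strand, with 2906 bp of exonic sequence, and it had 10, 14 and 4 counts in the fresh and 2, 1 and 1 counts in the RNA-Best libraries. The CPM were 0.247, 0.295 and 0.276 in the fresh and 0.228, 0.204 and 0.0833 in the RNA-Best libraries, without overlap. Summed over the libraries, 28 counts gave 0.273 CPM in fresh cells (exact Poisson 95% interval 0.182 to 0.395) and 4 counts gave 0.156 CPM in RNA-Best cells (0.0424 to 0.399). The ratio of RNA-Best to fresh was 0.570, with a 95% interval of 0.145 to 1.63 for counting error only, so no difference was detectable at this depth. The RNA-Best counts in each library lay under the limit that a count of 0 allows. An unnamed transcript on the opposite strand, *Gm42922*, shares 710 bp of exonic sequence with *Spry1* and had 0 counts in every library.

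*Spry2*, a widely studied Sprouty that binds Cbl, had 1 count in all 6 libraries together. It lies on chromosome 14 from 105891947 to 105896819 on the minus strand, with 2087 bp of exonic sequence. The count was in fresh replicate 1, and over all libraries it gave 0.00780 CPM with an exact Poisson upper 95% limit of 0.0435 CPM. In the RNA-Best libraries together it had 0 counts, for which a limit of 3 counts over the group is 0.117 CPM and the exact Poisson upper 95% limit, the kind given for all libraries, is 0.144 CPM. No comparison between the groups can be made for *Spry2* at this depth.

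**Figure D3:**
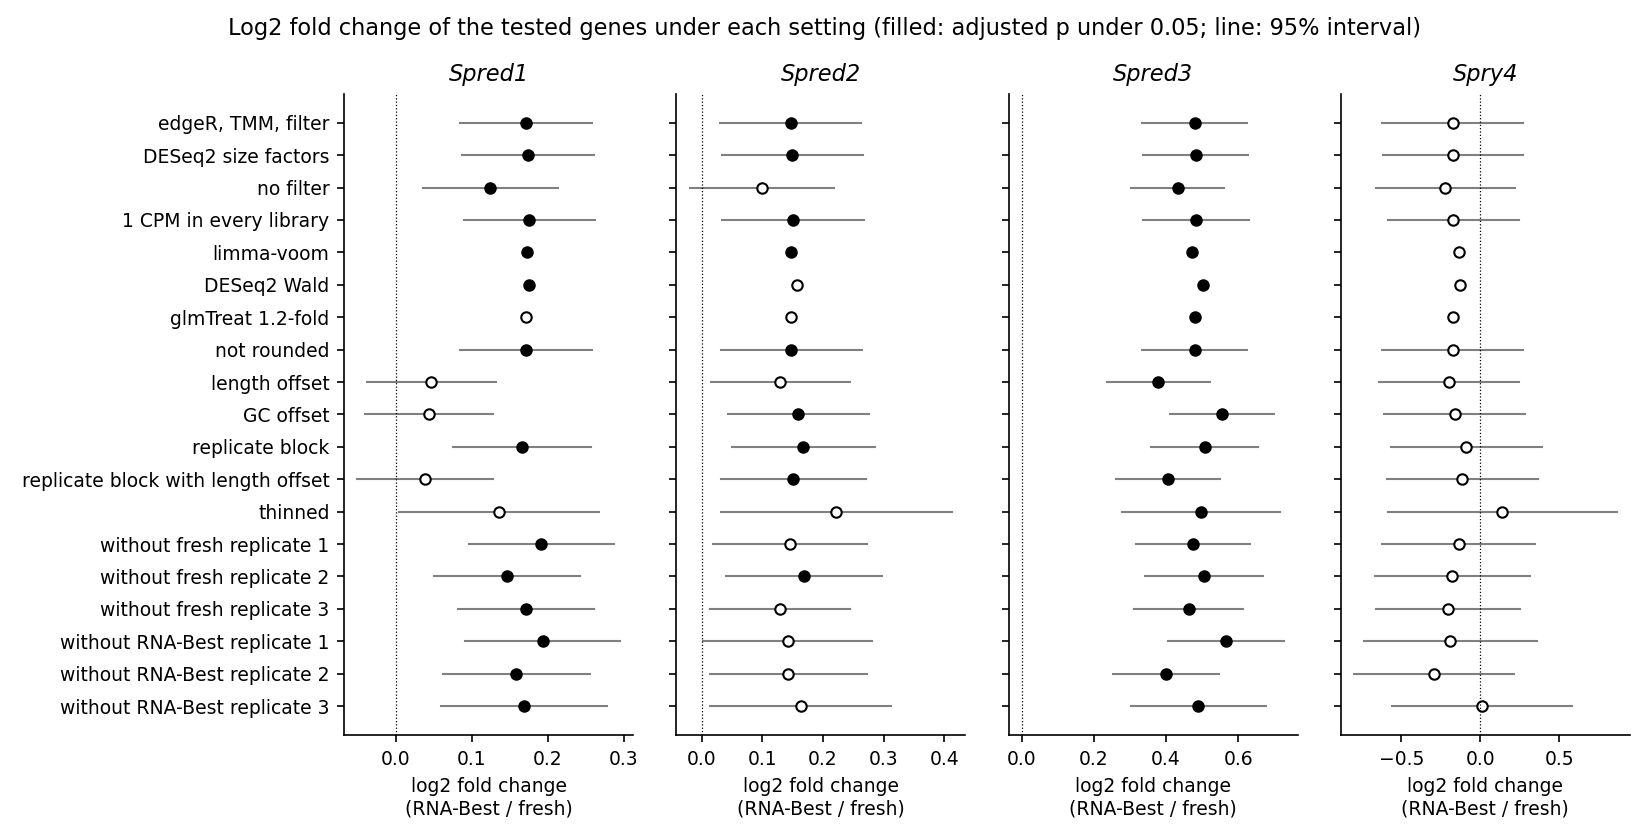
Log2 fold change, RNA-Best over fresh (x axis), of the 4 tested genes under the test of the text (top line) and 18 alternatives (y axis), with lines for 95% intervals where the tool gave one. Points are filled where the adjusted p is under 0.05, and *Spred3* is filled throughout, *Spred1* in 13 of the 18 alternatives, *Spred2* in 8 and *Spry4* in 0.

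The differences were set beside those of genes of like length, because the log2 fold change moved with exonic length over all tested genes, from a median of -0.22 up to 1 kb to 0.32 over 10 kb. Genes of 6 to 7 kb, the range of *Spred1* and *Spred3*, had a median log2 fold change of 0.11, and 40.8% of them were higher in RNA-Best and 11.4% lower. The log2 fold change of *Spred1* (0.17) was close to that median, and that of *Spred3* (0.48) above it. Genes of 4 to 5 kb, the range of *Spred2* and *Spry4*, had a median of -0.00087, with 20.2% higher and 21.2% lower. With an offset for exonic length in each library, the log2 fold change of *Spred3* was 0.38 and passed, while *Spred2* had 0.13 with an adjusted p of 0.0686 (edgeR).

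**Figure D4:**
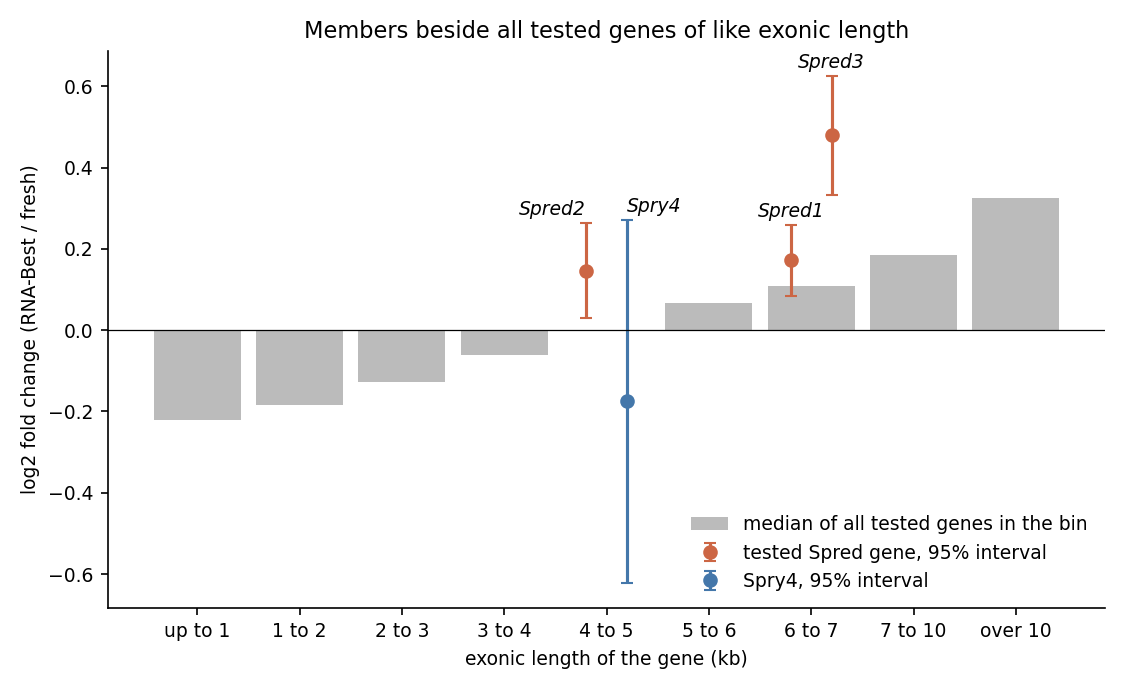
Log2 fold change, RNA-Best over fresh (y axis), by exonic length in kb (x axis), with grey bars for the medians of all tested genes and points with 95% intervals for the 4 tested Sprouty and Spred genes. *Spred1* and *Spred3* lie in the 6 to 7 kb bin with a median of 0.11, and the lower end of the *Spred3* interval is 0.33.

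The genes with the most similar profile over the 6 libraries were sought among 11450 genes of at least 5 CPM, by the root mean square distance of centred log2(CPM + 1) values. For *Spred1* these were *Ergic2* (distance 0.00920) and *Xpo1* (0.0129), for *Spred2* *Gm8806* (0.0118) and *Tmod3* (0.0132), and for *Spred3* *Fyco1* (0.0368) and *Gm5903* (0.0566). For *Spry4* they were *Vrk2* (0.0319) and *Ngef* (0.0403). The distances of *Spred3* were larger than those of *Spred1* and *Spred2*. The measure is not scaled to the size of the change, so it cannot rank how closely these profiles were followed.

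The proteins that Sprouty and Spred act with were taken as lists, described by counts and medians beside the 26.0% higher, 24.8% lower and median of -0.01 of all tested genes. Of 15 tested partners of Sprouty, 9 were higher and 4 lower in RNA-Best and 2 did not pass, with a median log2 fold change of 0.12. *Cbl*, the ubiquitin ligase bound by Sprouty, had 60.9 ± 1.86 CPM in fresh and 90.2 ± 5.76 CPM in RNA-Best libraries (SD, n = 3 each), a log2 fold change of 0.53 (adjusted p = 2.71e-12, edgeR). *Frs2*, the docking protein of the fibroblast growth factor receptors, rose by 0.49 (adjusted p = 3.73e-07, edgeR) and *Sos1*, a nucleotide exchange factor that activates Ras, by 0.43 (adjusted p = 8.97e-11, edgeR). *Grb2*, the adaptor itself, named after its value was seen, had 109 ± 2.06 and 107 ± 1.13 CPM (SD, n = 3 each) and did not pass (adjusted p = 0.28, edgeR). With an offset for exonic length, all of *Cbl* (0.22), *Frs2* (0.29) and *Sos1* (0.17) passed at smaller values. *Cav1* was at 0 in every library.

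The list of Ras and Raf genes and their regulators (*Nf1*, *Rasa1*, *Ksr1* and *Shoc2*), the level at which Spred acts, had 7 higher, 2 lower and 3 not passing among 12 tested, with a median of 0.15. *Nf1*, which encodes the neurofibromin that Spred proteins recruit, had 117 ± 3.80 CPM in fresh and 174 ± 2.58 CPM in RNA-Best libraries (SD, n = 3 each), a log2 fold change of 0.56 (adjusted p = 9.65e-16, edgeR). *Braf*, a kinase below Ras, rose by 0.44 (adjusted p = 2.29e-09, edgeR), a call that an offset for exonic length removed (0.10, adjusted p = 0.0997, edgeR), while *Nf1* passed with that offset at 0.17. *Hras* decreased by 0.31 (adjusted p = 1.26e-08, edgeR), and passed with that offset at -0.27 (adjusted p = 3.07e-07, edgeR). The exonic lengths of these genes are 15850, 13862 and 3733 bp, in the order of their log2 fold changes. These genes were named for their large changes, so this order says nothing of the rest of the list.

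Other inhibitors of Ras or ERK signalling were 5 higher, 2 lower and 5 not passing among 12 tested, with a median of 0.07. *Rasal2*, whose product stimulates GTP hydrolysis by Ras and so switches it off, rose by 0.56 (adjusted p = 9.03e-14, edgeR), and *Lrig2*, a membrane protein that interacts with receptor kinases, by 0.37 (adjusted p = 0.000226, edgeR). *Dusp6*, the ERK phosphatase that is a feedback target like the Sprouty genes, also named after its value was seen, had 7.25 ± 0.800 and 6.86 ± 0.677 CPM (SD, n = 3 each) and did not pass (adjusted p = 0.757, edgeR). Among 14 transcription factors regulated by ERK, 1 was higher, 4 lower and 9 did not pass, with a median of -0.01. *Etv4*, a target and effector of ERK, decreased by 0.30 (adjusted p = 0.0173, edgeR), *Ier2* by 0.27 (adjusted p = 3.37e-06, edgeR) and *Junb* by 0.27 (adjusted p = 1.35e-07, edgeR). With an offset for exonic length *Rasal2* (0.23) and *Junb* (-0.14) passed at smaller values. The *Etv4* call was lost at a like log2 fold change without RNA-Best replicate 3 (-0.28, adjusted p = 0.112, edgeR) and with DESeq2's Wald test (-0.31, adjusted p = 0.086). It was lost at a smaller change with an offset for GC content (-0.19, adjusted p = 0.158, edgeR) and after thinning (-0.11, adjusted p = 0.669, edgeR).

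Of 7 tested relatives that share the EVH1 domain with Spred, 4 were higher, 1 lower and 2 did not pass, with a median of 0.17. *Homer1*, a scaffold of neuronal synapses, rose by 0.26, but had -0.039 with an offset for exonic length, and did not pass with an offset for GC content (0.08) or after thinning (0.13), and *Wasl*, an activator of actin branching, rose by 0.22. *Enah*, an actin regulator with 21452 bp of exonic sequence, rose by 0.19 (adjusted p = 9.64e-06, edgeR) and turned to -0.28 with that offset (adjusted p = 1.52e-08, edgeR). Of 10 tested receptor tyrosine kinases, 5 were higher, 0 lower and 5 did not pass, with a median of 0.27. *Igf1r*, the receptor of insulin-like growth factor, rose by 0.72 (adjusted p = 6.43e-09, edgeR) from 11.1 ± 0.594 to 19.2 ± 2.30 CPM (SD, n = 3 each), and passed with an offset for exonic length at 0.33. *Met*, the hepatocyte growth factor receptor, rose by 0.34 (adjusted p = 0.0151, edgeR). This did not pass without fresh replicate 2 (0.28, adjusted p = 0.0621, edgeR) or without RNA-Best replicate 1 (0.30, adjusted p = 0.0927, edgeR). Leaving out either of these libraries lowered the count of receptors called from 5 to 3. The *Met* call was also lost without the filter on low counts (0.30, adjusted p = 0.0533, edgeR), after thinning (0.39, adjusted p = 0.12, edgeR), with an offset for GC content (0.26, adjusted p = 0.0622, edgeR) and in the Wald test of DESeq2 (0.33, adjusted p = 0.1). *Insr*, the insulin receptor, rose by 0.33, but had -0.0091 with an offset for exonic length and did not pass after thinning (0.24, adjusted p = 0.118, edgeR). With that offset, 7 Sprouty partners, 6 genes of the Ras and Raf list, 4 other inhibitors, 2 transcription factors, 2 EVH1 relatives and 1 receptor passed, as did 5640 of all 14736 tested genes, against 7479 without it. The calls of *Lrig2* (0.08), *Etv4* (-0.22), *Ier2* (-0.10), *Met* (0.18) and *Wasl* (0.12) were among those lost.

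**Figure D5:**
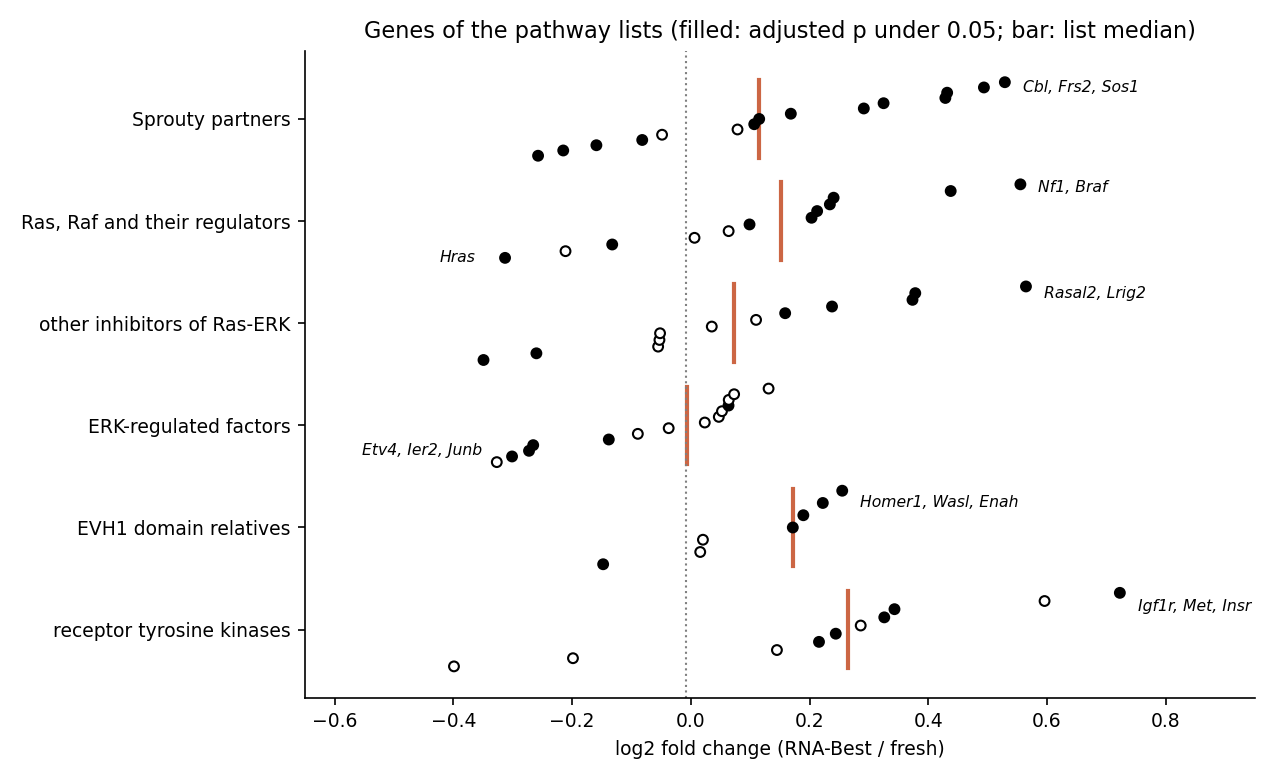
Log2 fold change, RNA-Best over fresh (x axis), of the tested genes in 6 lists (y axis), filled where the adjusted p is under 0.05, with bars for the list medians (-0.01 to 0.27) and a dotted line for the median of all tested genes. The named genes are those of the text, of which *Homer1*, *Enah* and *Insr* change sign with an offset for exonic length.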

How the data were processed

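PolyA RNA libraries of LβT2 cells, 3 fresh and 3 RNA-Best, were sequenced by single-end reads. The authors used STAR 2.5.1b for alignment and counted reads per gene with featureCounts 1.5.0-p1 on GRCm38, and the deposited values are estimated counts, some of them fractional, with no scaling. The settings for strand and for reads with several places are not given in the sources used here, so overlapping genes and near copies are uncertain. Columns named for stabilized cells were matched to the RNA-Best samples by their number. Spike-ins were not analysed here.

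Counts were rounded and tested over the whole table with edgeR 4.0.16 (TMM scaling, filterByExpr with a minimum count of 10, quasi-likelihood test, Benjamini-Hochberg adjustment, threshold 0.05) in R 4.3.3, and the procedure was tested on simulated data. CPM used column totals. The methods of the study name limma-voom (limma 3.58.1), which was an alternative beside DESeq2 1.42.0, other filters and scaling, a 1.2-fold null, loess offsets (span 0.5) for exonic length or GC content, thinning, a replicate block and leaving out libraries. The study also set a minimum fold change for its calls, which the calls here do not require, apart from the 1.2-fold null. Positions, lengths and GC content came from GENCODE M21, a later release than that of the authors on the same assembly. The members and lists were chosen with earlier results of these data known. Named are all 6 members, the 3 genes of each list with the largest absolute log2 fold change among those called without overlap of the groups, and for each tested member the 2 genes of most similar profile. A gene that the rule names is not reported here. Deviations from the group means correlated by -0.00563 to 0.0355 between libraries of the same replicate number. Counting error lowers such correlations, so they cannot decide whether the numbers mark a shared culture or day.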

Additional observations from a re-analysis of the deposited data

How the results depend on the processing

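Of all tested genes, 7479 passed with edgeR, and 1693 passed when a fold change beyond 1.2 was required (glmTreat). Of the 4 tested members 3 passed, and 1 passed under each of that requirement, an offset for exonic length (with 5640 of all 14736 tested genes) and thinning to equal depth (with 5388 of 12981). The other 32 alternatives of these counts stayed within 1.5 times of them, which includes a fall from 3 members called to 2. That fall was seen without the filter on low counts, with DESeq2's Wald test and with an offset for GC content. The replicate block with the length offset also gave 2 members, as did leaving out fresh replicate 1 or 3 or RNA-Best replicate 1, 2 or 3. With the replicate block, 7472 genes passed and no call of a member changed, the log2 fold changes being 0.17 for *Spred1*, 0.17 for *Spred2*, 0.51 for *Spred3* and -0.09 for *Spry4*. *Spry4* had 0.14 after thinning, and -0.29 to 0.0084 when 1 library was left out, the upper end without RNA-Best replicate 3. With the length offset, and with the replicate block added to it, *Homer1* had -0.039 and -0.051, *Enah* -0.28 and -0.28, and *Insr* -0.0091 and -0.014, all opposite in sign to the fit without it. Per kb of the longest transcript, the log2 ratio of *Spred3* to *Spred2* in RNA-Best moved from -0.58 to -0.02. The cause of the other changes was not tested. Of the log2 fold changes of named genes under alternatives, 339 kept their direction and side of the threshold, 49 lost the threshold and 8 changed sign. Of the counts of genes called per list, 82 stayed within 1.5 times and 26 fell by more. The ratio of RNA-Best to fresh of the summed Sprouty level turned from 0.930 to 1.04 without RNA-Best replicate 3. The summed Sprouty level was 1.96 ± 0.473 CPM in the RNA-Best libraries (SD, n = 3). Depth limits *Spry1*, *Spry2* and *Spry4*, which had 32, 1 and 235 counts in all libraries together.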

Other observations

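Among the listed genes with too few counts for the test, *Dusp4*, an ERK phosphatase, had 0.698 ± 0.122 CPM in fresh and 0.520 ± 0.0980 CPM in RNA-Best libraries (SD, n = 3 each), and *Ets1*, a transcription factor that ERK phosphorylates, had 0.600 ± 0.137 and 0.207 ± 0.208 CPM (SD, n = 3 each). *Ret*, a receptor tyrosine kinase, had 0.323 ± 0.0853 and 0.409 ± 0.160 CPM (SD, n = 3 each). These values rest on few counts and were not tested.

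Of the 7 detected gonadotrope markers, 4 had lower and 2 higher levels in every RNA-Best library than in every fresh library, and *Lhb*, a subunit of luteinizing hormone, overlapped, where 57.5% of all tested genes do not overlap. *Gnrhr*, the GnRH receptor, had 109 to 125 CPM in fresh and 159 to 173 CPM in RNA-Best libraries, and *Foxl2*, a pituitary transcription factor, 23.6 to 24.2 and 28.6 to 32.8 CPM. *Cga*, the common subunit of the pituitary glycoprotein hormones, had 1792 to 1831 CPM in fresh and 1409.7 to 1448 CPM in RNA-Best libraries, and *Nr5a1*, the nuclear receptor that defines gonadotropes, 435 to 439 and 372 to 387 CPM. *Pitx1* had 657 to 689 and 568 to 605 CPM, and *Gata2* 526 to 533 and 503 to 515 CPM, both encoding pituitary transcription factors.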
